A study of Mus musculus with 6 samples.

Results

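The insulin and IGF-1 signalling route from the cell surface to Akt was followed through 10 genes in inguinal white adipose tissue, a subcutaneous depot of the mouse groin. The genes were picked by symbol: the receptors Igf1r and Insr, the adaptors Irs1 and Irs2, the phosphoinositide 3-kinase (PI3K) subunits Pik3r1, Pik3ca and Pik3cb, and the kinases Pdpk1, Akt1 and Akt2. All 10 were among the 14861 genes of the deposited table, and all 10 passed the filter on low values that left 12993 genes to be tested. RNA came from 3 Flox mice, which carry the loxP-flanked Igf1r allele (B6;129-Igf1rtm2Arge/J), and from 3 AdIGF1RKO mice. AdIGF1RKO mice carry the same allele and a Cre recombinase transgene under the adiponectin promoter (strain B6; FVB-Tg (Adipoq-Cre)1Evdr/J). Flox mice were littermates, so the loxP-flanked allele was shared by both groups. All mice were kept for 24 weeks on the same normal chow, in which fat supplied 10% of the energy, and went without food overnight before the tissue was taken. The labels give no age or sex in addition to this.

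In textbook outline, insulin and IGF-1 bind a pair of related receptor tyrosine kinases, the insulin receptor and the IGF-1 receptor, which can also join as hybrids. The active receptor phosphorylates IRS proteins, these recruit PI3K, and the lipid that PI3K makes brings Pdpk1 (PDK1) and Akt to the membrane, where Pdpk1 phosphorylates Akt. In adipocytes this route drives glucose uptake and fat storage and restrains lipolysis. It is regulated mostly by phosphorylation, which RNA levels do not read.

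Between 60617147 and 70695527 reads per library were recovered from the table. Values are given as scaled CPM, reads per 1000000 of a library of average size after median-ratio scaling, and 1 read is worth 0.0130 to 0.0207 scaled CPM. The adipocyte markers Adipoq and Fabp4 were abundant in each library, with at least 3348 and 22671 scaled CPM. Skeletal muscle markers made up 13.7% of Flox 3, 4.99% of AdIGF1RKO 3 and at most 0.964% of any of the other 4 libraries by reads, and 19 of the 19 markers in the table had a lower mean in AdIGF1RKO. The summed markers ranged from 52205 to 66835 in Flox and 48869 to 55514 in AdIGF1RKO for 10 adipocyte genes, from 5424 to 6632 and 5323 to 6356 for 10 stromal progenitor genes, from 595 to 746 and 731 to 884 for 10 endothelial genes, and from 1988 to 3138 and 2281 to 3529 for 10 macrophage genes. A lower mean in AdIGF1RKO was held by 5 of the 10 adipocyte, 6 of the 10 stromal progenitor, 1 of the 10 endothelial and 7 of the 10 macrophage genes. The other genes of these 4 lists had a higher mean there, so the sums do not give the direction of most markers. Lymphocyte markers summed to at most 38.1 in any library and the 3 analysed epithelial markers to at most 14.4. In such bulk tissue, fewer cells of a type and less RNA per cell cannot be told apart.

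No difference between AdIGF1RKO and Flox passed the test for any of the 10 genes. With limma, 0 of 10 passed an adjusted p under 0.05 (Benjamini-Hochberg over all tested genes), against a background of 0.00% of all genes, and each had an adjusted p = 0.998. Since limma called no gene of the table, the lack of a call does not show that a gene was unchanged, and the intervals give the differences that remain possible. Neither edgeR nor DESeq2 on the recovered reads called any of them, although DESeq2 called 23 genes elsewhere in the table. At an unadjusted limma p under 0.05 there were also 0 of 10, where all tested genes gave 2.96%. Of the 10 log2 differences 6 were negative and 4 positive, where 44.8% of all tested genes were positive. The median was -0.07 beside -0.02 for all tested genes. Only Pik3cb had groups that did not overlap, higher in AdIGF1RKO, so 1 of 10 did so beside 8.27% of all tested genes (4.41% higher and 3.86% lower in AdIGF1RKO). The 95% intervals of 9 of the 10 differences lay within 1 log2 unit of 0 on either side, that of Pik3r1 being the exception.

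**Figure D1:**
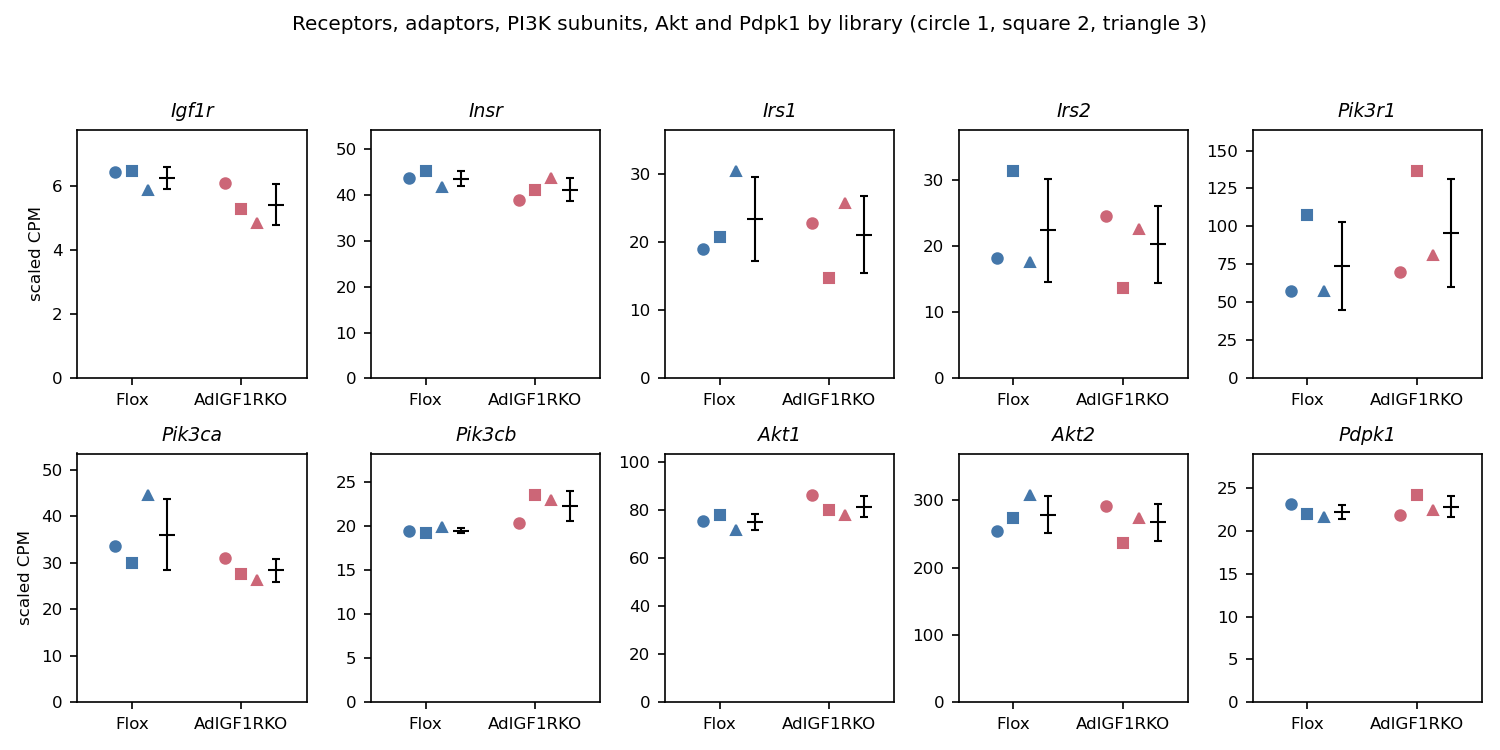
Scaled CPM (y axis, starting at 0) of each of the 10 genes in the 3 Flox and 3 AdIGF1RKO libraries, with the symbol giving the replicate number and the bar the mean and SD. Insr, Pdpk1 and Akt1 are nearly level across libraries, while Pik3r1 ranges from 57.5 to 137 and Irs2 from 13.6 to 31.4.

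The receptors were described first, because Igf1r is the deleted gene. Igf1r had 6.44, 6.47 and 5.86 scaled CPM in Flox 1 to 3 and 6.11, 5.27 and 4.85 in AdIGF1RKO 1 to 3. AdIGF1RKO 1 lay above Flox 3, so the groups overlapped, and AdIGF1RKO held 86.5% of the Flox mean. The count covers the gene as a whole, the labels do not name the part that Cre removes, and cells in which the adiponectin promoter is silent contribute RNA too, so it does not directly read the deletion. The log2 difference was -0.18, with a 95% interval from -0.48 to 0.12. In same-numbered pairs AdIGF1RKO over Flox was 0.948, 0.815 and 0.828. These values rest on 283 to 471 reads per library, for which counting alone gives a coefficient of variation (CV) of 5.13%. The observed CV was 5.47% in Flox and 11.8% in AdIGF1RKO.

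Insr, the receptor that binds insulin with the higher affinity, had 43.7, 45.2 and 41.8 scaled CPM in Flox and 38.8, 41.1 and 43.6 in AdIGF1RKO. The groups overlapped, and the interval of the log2 difference of -0.08 ran from -0.29 to 0.13. Insr was among the steadiest of the 10 genes, with a CV of 5.41% over the 6 libraries against a median of 13.8% for all tested genes. The Igf1r-to-Insr ratio within a library does not depend on how libraries are scaled. It was 0.147, 0.143 and 0.140 in Flox and 0.158, 0.128 and 0.111 in AdIGF1RKO. The AdIGF1RKO ratios spread to both sides of the Flox ratios, and the difference did not pass an exact permutation test (two-sided p = 0.5, adjusted p = 0.625 over the 5 ratios compared). The log2 difference of the ratio, -0.13, was -0.015 without AdIGF1RKO 3, -0.27 without AdIGF1RKO 1 and -0.031 without both muscle-rich libraries. With 3 libraries against 3 that test cannot give a p below 0.1, so no ratio could pass 0.05 whatever its values.

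**Figure D2:**
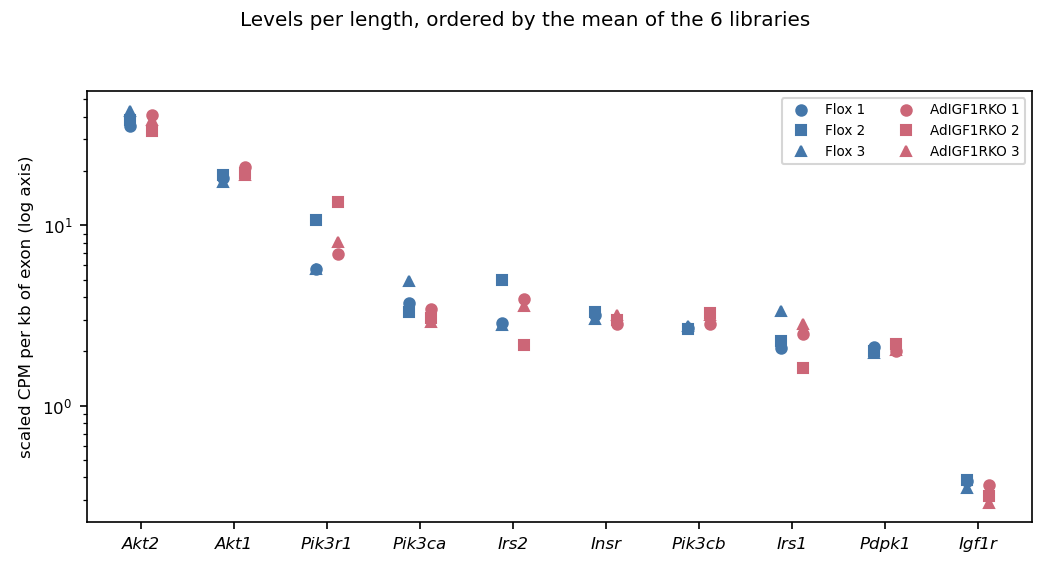
Scaled CPM per kilobase of exon (log axis) for the 10 genes, ordered by their mean over the 6 libraries, with colours for the groups and symbols for the replicate numbers. Akt2 stands at the top with 33.1 to 43.1 and Igf1r at the bottom with 0.289 to 0.385.

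Levels can be set against each other between genes only per length. Divided by the merged exon length in GENCODE vM21 (16.8 kb for Igf1r and 13.7 kb for Insr), Igf1r had 0.373 ± 0.0204 scaled CPM per kb in Flox and 0.322 ± 0.0380 in AdIGF1RKO (SD, n = 3 each). Insr had 3.17 ± 0.126 and 2.99 ± 0.175 scaled CPM per kb. The mean of Insr over the 6 libraries was 8.87 times that of Igf1r, and no Igf1r value came near the lowest Insr value of 2.82. Igf1r was the lowest of the 10 genes in every library. At the other end, the mean level per length of Akt2 was 110.0 times that of Igf1r and 2.00 times that of Akt1, Akt1 lay 2.26 times above Pik3r1 and Pik3r1 2.38 times above Pik3ca, each with no overlap over the 6 libraries. From Pik3ca down through Irs2, Insr, Pik3cb and Irs1 to Pdpk1 the means ran only from 3.55 to 2.06 scaled CPM per kb. Each neighbour in that stretch overlapped with the next, so the order of neighbours is not resolved. Pdpk1, at most 2.21, did lie below every value of Pik3ca, Insr and Pik3cb. When the longest transcript was used as the length, 5 of these 6 genes took another place, and Pdpk1 still lay below every value of Insr. Pdpk1 lay 5.92 times above Igf1r, with no overlap. Which transcripts adipose tissue uses is not read by these counts.

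IRS proteins are the docking platforms that couple both receptors to PI3K. Irs1 and Irs2 are shown with their promoters because these hold the same pair of short motifs in close neighbourhood. The motifs are the E-box CACGTG, which basic helix-loop-helix factors bind, and TGTTTTG, the core of the insulin response element that FoxO factors bind. The 250 bases before each start were read from the RefSeq promoter table (build GRCm38.p6, minus strand, shown 5′ to 3′ on the gene's own strand), and matches on either strand are in capitals. The region is chr1:82291440-82291689 for Irs1, chr8:11008930-11009179 for Irs2 and chrX:141725218-141725467 for Irs4, a family member absent from the deposited table.
Irs1: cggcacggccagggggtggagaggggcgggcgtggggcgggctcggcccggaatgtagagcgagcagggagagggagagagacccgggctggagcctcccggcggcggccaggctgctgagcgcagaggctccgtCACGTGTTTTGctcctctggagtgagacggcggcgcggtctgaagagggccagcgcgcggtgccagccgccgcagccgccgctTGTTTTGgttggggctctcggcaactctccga
Irs2: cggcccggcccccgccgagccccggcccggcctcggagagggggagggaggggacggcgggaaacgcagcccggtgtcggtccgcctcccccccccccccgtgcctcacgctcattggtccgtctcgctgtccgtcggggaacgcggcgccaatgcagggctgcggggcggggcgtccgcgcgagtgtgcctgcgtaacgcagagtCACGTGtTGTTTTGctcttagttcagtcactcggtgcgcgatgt
Irs4: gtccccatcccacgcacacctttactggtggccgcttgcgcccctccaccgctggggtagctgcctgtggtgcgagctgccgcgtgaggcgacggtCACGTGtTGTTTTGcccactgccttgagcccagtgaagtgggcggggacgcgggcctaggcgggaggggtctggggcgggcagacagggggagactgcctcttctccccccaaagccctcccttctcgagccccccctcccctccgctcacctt
In Irs1 the E-box starts 115 bases before the start of the gene and runs into a TGTTTTG that starts at 111, so the motifs overlap, and a second TGTTTTG starts at 32. In Irs2 they start at 44 and 37, and in Irs4 at 154 and 147, in each case with a single t between them. Of all 32851 promoters in the table, 6.02% held CACGTG and 5.56% held TGTTTTG, and 7 held both with starts at most 10 bases apart. Irs1, Irs2 and Irs4 were 3 of the 7 genes. The pair of motifs and the distance were chosen after the promoters of Irs1 and Irs2 had been seen. The promoter of Irs3 held neither motif in that window, nor did those of the other 7 members found in the table. A match describes letters, not binding.

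Irs1 and Irs2 varied far more between mice than the receptors. Irs1 had 19.0, 20.8 and 30.5 scaled CPM in Flox and 22.8, 14.8 and 25.8 in AdIGF1RKO. Its highest values were in Flox 3 and AdIGF1RKO 3, the libraries with the most muscle RNA. The log2 difference of -0.15 was -0.10 without both of these and -0.05 with the muscle markers as a covariate, and none of these passed. Irs2 had 18.2, 31.4 and 17.6 scaled CPM in Flox and 24.6, 13.6 and 22.6 in AdIGF1RKO. It was highest in Flox 2 and lowest in AdIGF1RKO 2, so same-numbered pairs went opposite ways, with AdIGF1RKO over Flox at 1.35, 0.434 and 1.29. The CV over the 6 libraries was 24.5% for Irs1 and 29.3% for Irs2, where counting alone gives 2.65% and 2.75%. Their 95% intervals were correspondingly wide, from -0.76 to 0.46 for Irs1 and from -0.84 to 0.58 for Irs2.

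The Irs1-to-Irs2 ratio was 1.04, 0.662 and 1.73 in Flox and 0.930, 1.08 and 1.14 in AdIGF1RKO. The Flox ratios enclosed all AdIGF1RKO ratios (exact permutation test, two-sided p = 1, adjusted p = 1).

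**Figure D3:**
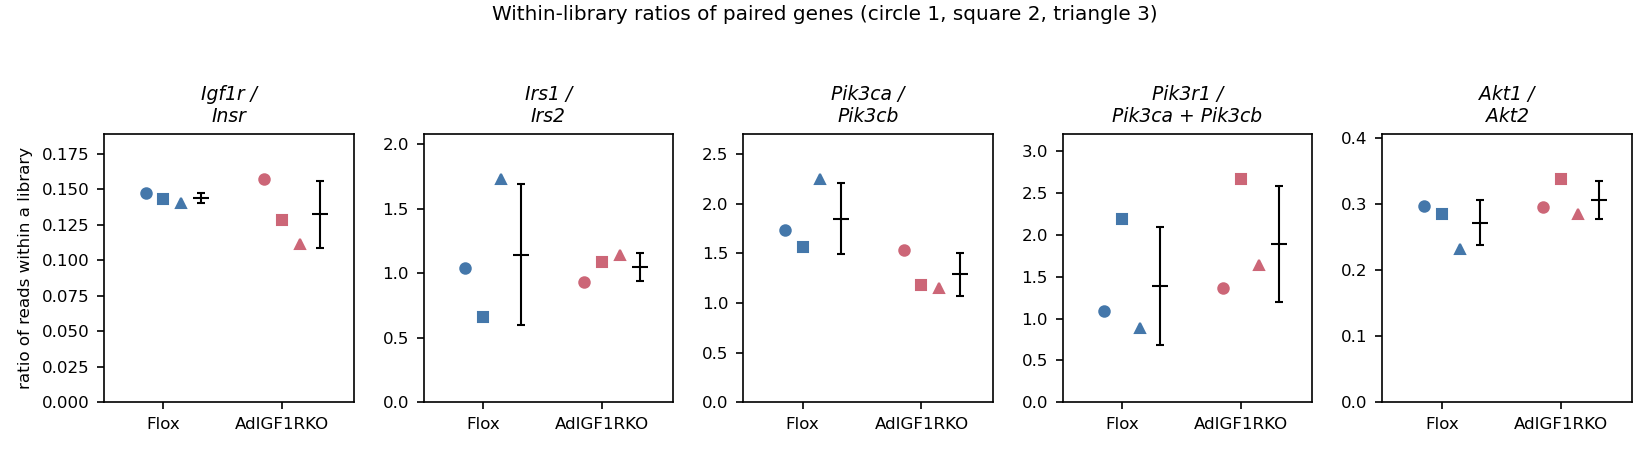
Ratios of reads of paired genes within each library (y axis, starting at 0), with symbols for the replicate numbers and bars for the mean and SD of each group. Only for Pik3ca over Pik3cb do the groups stand apart, at 1.56 to 2.25 in Flox and 1.15 to 1.54 in AdIGF1RKO.

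Among the PI3K subunits, Pik3ca and Pik3cb had differences of opposite sign. Pik3ca encodes p110-alpha, the catalytic subunit known to carry most insulin signalling, and had 33.6, 30.0 and 44.6 scaled CPM in Flox and 31.2, 27.7 and 26.4 in AdIGF1RKO. Flox 3 stood above the other Flox libraries, AdIGF1RKO 1 lay above Flox 2, and the groups overlapped. The log2 difference of -0.32 (95% interval from -0.70 to 0.07) was the most negative of the 10 genes and did not pass limma (adjusted p = 0.998). It was -0.11 without the muscle-rich libraries Flox 3 and AdIGF1RKO 3 and -0.16 without Flox 3 alone. With the muscle markers as a covariate it was -0.28, without AdIGF1RKO 3 alone -0.27 and without Flox 2 -0.44.

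Pik3cb encodes p110-beta, which also responds to G protein-coupled receptors. It had 19.4, 19.2 and 19.8 scaled CPM in Flox and 20.3, 23.5 and 22.9 in AdIGF1RKO. All AdIGF1RKO values lay above all Flox values, at 114% of the Flox mean. The log2 difference was 0.18 with a 95% interval from -0.05 to 0.41. The Flox libraries were within a CV of 1.68% of each other, below the 2.71% that counting gives for 957 to 1663 reads.

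The ratio of the catalytic subunits within each library was 1 of the 5 ratios compared. It rests on the same values as their differences of opposite sign and is no separate support for them. Pik3ca over Pik3cb was 1.73, 1.56 and 2.25 in Flox and 1.54, 1.18 and 1.15 in AdIGF1RKO. All AdIGF1RKO ratios lay below all Flox ratios, although AdIGF1RKO 1 and Flox 2 nearly met. The log2 difference of the ratio was -0.52, and the exact permutation test gave the smallest two-sided p that this design allows, 0.1, with an adjusted p = 0.5 over 5 ratios. Without both muscle-rich libraries the difference of the ratio was -0.29, and that of Pik3r1 over both catalytic subunits was then 0.31.

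Pik3r1 encodes p85-alpha, the regulatory subunit that holds the catalytic subunits on IRS proteins, and it was the most variable of the 10 genes. It had 57.5, 108 and 57.5 scaled CPM in Flox and 70.2, 137 and 80.9 in AdIGF1RKO. The libraries numbered 2 were high in both groups, and the groups overlapped. Over the 6 libraries the CV was 36.9%, higher than in 89.4% of tested genes, where counting alone gives 1.40%. In same-numbered pairs AdIGF1RKO over Flox was 1.22, 1.27 and 1.41. The log2 difference of 0.37 (95% interval from -0.44 to 1.18) did not pass limma (adjusted p = 0.998), nor when replicate numbers entered as a block (adjusted p = 0.914). With that block Pik3r1 alone among the 10 genes had an unadjusted p under 0.05, as did 582 of all 12993 tested genes. Without AdIGF1RKO 2 the difference was 0.09, and without Flox 2 it was 0.67.

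Pik3r1 over the sum of Pik3ca and Pik3cb was 1.08, 2.19 and 0.892 in Flox and 1.36, 2.67 and 1.64 in AdIGF1RKO. The groups overlapped (exact permutation test, two-sided p = 0.4, adjusted p = 0.625). The log2 difference of 0.50 was 0.22 without AdIGF1RKO 2, 0.24 without Flox 3 and 0.88 without Flox 2. Reads per kilobase of these subunits gave a ratio of 0.744 to 2.15 over the 6 libraries.

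The kinases at the end of the route differed little between the group means. Pdpk1, which phosphorylates the activation loop of Akt, had 23.1, 21.9 and 21.5 scaled CPM in Flox and 21.8, 24.1 and 22.4 in AdIGF1RKO. It was the steadiest of the 10 genes, with a CV of 4.40% over the 6 libraries, and 2.48% of tested genes had a lower one. The log2 difference was 0.04 with a 95% interval from -0.18 to 0.25.

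Akt1, the isoform tied to growth, had 75.4, 78.1 and 71.7 scaled CPM in Flox and 86.3, 80.1 and 78.0 in AdIGF1RKO. The groups met at Flox 2 and AdIGF1RKO 3, and each same-numbered pair was higher in AdIGF1RKO, at 1.14, 1.02 and 1.09. The log2 difference was 0.12, with a 95% interval from -0.09 to 0.32.

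Akt2, the isoform tied to glucose uptake in fat and muscle, had 254, 273 and 308 scaled CPM in Flox and 291, 236 and 274 in AdIGF1RKO. Its groups overlapped over most of their range, with a log2 difference of -0.06 and an interval from -0.35 to 0.23. Per kilobase, Akt1 had 0.474 ± 0.0599 times the level of Akt2 in Flox and 0.534 ± 0.0492 times in AdIGF1RKO (SD, n = 3 each), so Akt2 was the more abundant in every library. The ratio of reads was 0.297, 0.286 and 0.233 in Flox and 0.297, 0.339 and 0.285 in AdIGF1RKO, and the groups overlapped. The exact permutation test, which cannot give a p below 0.1 here, gave a two-sided p = 0.5 (adjusted p = 0.625). The log2 difference of the ratio, 0.18, was 0.069 without Flox 3 and 0.10 without AdIGF1RKO 2.

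In same-numbered pairs, 5 of the 10 genes differed in a single direction in all 3 pairs: Igf1r and Pik3ca were lower, and Pik3r1, Pik3cb and Akt1 were higher. Among all tested genes 25.3% did so, and the labels do not say that a shared number marks a pair.

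**Figure D4:**
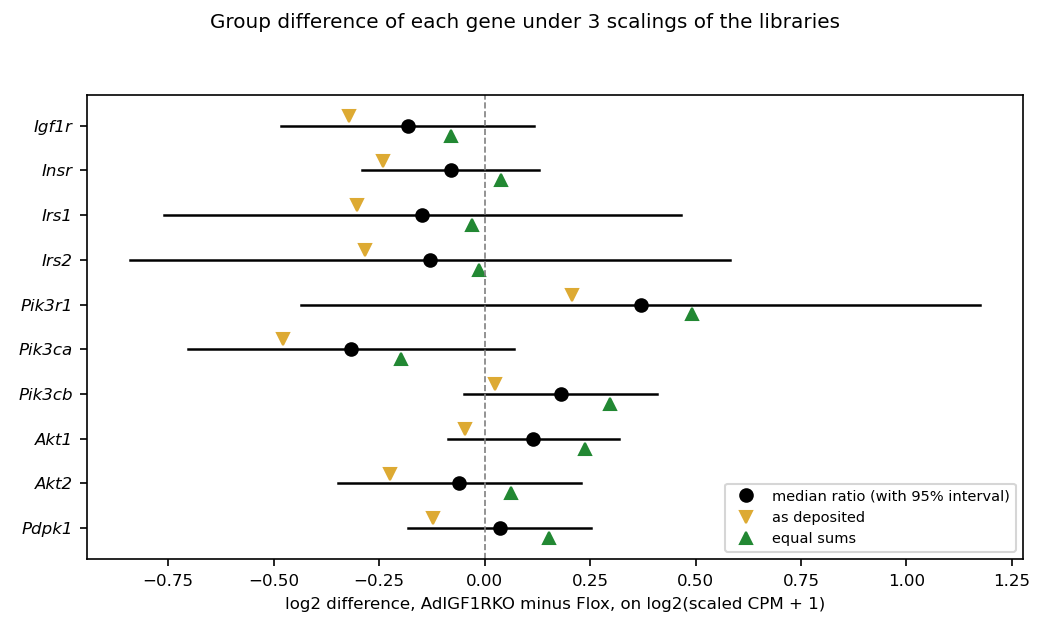
Log2 difference, AdIGF1RKO minus Flox, of each of the 10 genes on the log2(scaled CPM + 1) scale, with black dots and lines for the median-ratio scaling and its 95% interval and triangles for the other scalings. All 10 intervals include 0, and Insr, Akt1, Akt2 and Pdpk1 cross 0 as the scalings shift all genes together.

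The choice of scaling moved all 10 differences together. The recovered reads of a library summed to 0.864 to 1.55 times the divisor behind its deposited values, so the deposited values do not sum to the same total in each library. The median of all tested genes was -0.17 with the values as deposited and 0.09 with libraries scaled to equal sums. Igf1r had -0.32 and -0.08, and Pik3ca -0.48 and -0.20 in these scalings. With the values as deposited Igf1r was the only one of the 10 genes at an unadjusted limma p under 0.05, and it did not pass adjustment (limma adjusted p = 0.722). In that scaling 515 of all 12974 tested genes were at such a p, 458 of them lower in AdIGF1RKO and 57 higher. Each scaling multiplies a library by 1 constant and so shifts all genes nearly alike. In all 3 scalings 6 of the 10 genes lay below the median of all genes and 4 above. That was nearly fixed in advance and is no test of stability.

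The rest of the pathway was read from 4 further lists, of which 53 genes were tested and 0 were called in either direction by limma. Among 10 tested receptors and adaptors 2 differences were positive and 8 negative, with a median of -0.09 and 0 with groups apart. Of all tested genes 44.8% had a positive difference. Sh2b1 had means of 29.73 scaled CPM in Flox and 25.98 in AdIGF1RKO, Sh2b2 of 24.4 and 21.2, and Grb2, which couples receptors to Ras, of 77.1 and 83.1. Single libraries carried much of these gaps: the log2 difference of Sh2b1 went from -0.18 to -0.050 without Flox 3, that of Sh2b2 from -0.21 to -0.064 without AdIGF1RKO 3, and that of Grb2 from 0.10 to 0.037 without AdIGF1RKO 1. Irs3, an IRS gene that rodents express in fat, had 32.15 ± 4.202 in Flox and 31.998 ± 6.189 in AdIGF1RKO (SD, n = 3 each).

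Of 11 other PI3K and Akt genes 8 were positive and 3 negative, with a median of 0.05 and 0 with groups apart. Pik3r5 and Pik3cg encode the regulatory and catalytic subunits of PI3K-gamma, known from white blood cells. Pik3r5 had means of 5.77 in Flox and 7.49 in AdIGF1RKO and was highest in AdIGF1RKO 2 (10.1), the library with the highest summed macrophage markers, and the part of that in the result was not tested. Pik3cg had means of 3.58 and 4.32, and Pik3r3 of 8.07 and 7.64. For Pik3r5 the log2 difference went from 0.31 to 0.10 without AdIGF1RKO 2, that of Pik3cg from 0.25 to 0.0076 without Flox 3, and that of Pik3r3 from -0.070 to -0.00075 without AdIGF1RKO 1.

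Among the brakes of the pathway 2 genes had an unadjusted limma p under 0.05, Trib3 and Inppl1, beside 2.96% of all tested genes, and neither passed adjustment. Of 17 tested brakes 8 were positive and 9 negative, with a median of -0.01, and these 2 had groups that did not overlap, beside 8.27% of all tested genes. Trib3, a pseudokinase that binds Akt, had 3.998, 4.604 and 3.833 scaled CPM in Flox and 6.24, 5.98 and 5.59 in AdIGF1RKO. Every AdIGF1RKO value lay above every Flox value, at a log2 difference of 0.43 (95% interval from 0.14 to 0.72, limma adjusted p = 0.998). Inppl1, the lipid phosphatase SHIP2 that removes the PI3K product, had 59.1, 55.6 and 67.7 in Flox and 50.2, 44.8 and 54.0 in AdIGF1RKO. Every AdIGF1RKO value lay below every Flox value, at a log2 difference of -0.29 (95% interval from -0.56 to -0.0080, limma adjusted p = 0.998). The difference of Inppl1 was -0.16 with libraries scaled to equal sums and -0.45 with the values as deposited. With each replicate left out it was -0.35 to -0.21, and edgeR gave an unadjusted p = 0.0544. Phlpp2, an Akt phosphatase, had means of 8.36 and 7.12, and Inpp4a of 14.1 and 12.2, with a log2 difference of -0.20 for Inpp4a that was -0.13 without Flox 2 and -0.31 without AdIGF1RKO 1. Grb10, an adaptor that inhibits the receptors, lay at 43.2 ± 4.40 in Flox and at 43.2 ± 2.52 in AdIGF1RKO (SD, n = 3 each).

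Of 15 Akt partners and substrates 8 were positive and 7 negative, with a median of 0.02, and 1 had groups apart, a share near the 8.27% of all tested genes. That was Bad, an Akt substrate in cell death control, with 58.25, 57.66 and 50.04 scaled CPM in Flox and 60.6, 59.0 and 62.6 in AdIGF1RKO. Its log2 difference of 0.14 was 0.066 without Flox 3. Gsk3a had means of 64.5 and 56.9, Mapkap1, a subunit of the mTORC2 complex that phosphorylates Akt, of 34.5 and 38.3, and Akt1s1 of 83.6 and 66.8. For Akt1s1 the log2 difference went from -0.28 to -0.013 without Flox 3, to -0.14 without AdIGF1RKO 1 and to -0.11 with the muscle covariate, that of Gsk3a from -0.17 to -0.065 without Flox 3, and that of Mapkap1 from 0.15 to 0.068 without AdIGF1RKO 1. Slc2a4, the insulin-regulated glucose transporter GLUT4, had 152, 155 and 278 in Flox and 140, 160 and 191 in AdIGF1RKO. It was highest in the 2 muscle-rich libraries, and the part of muscle RNA in its difference was not tested.

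**Figure D5:**
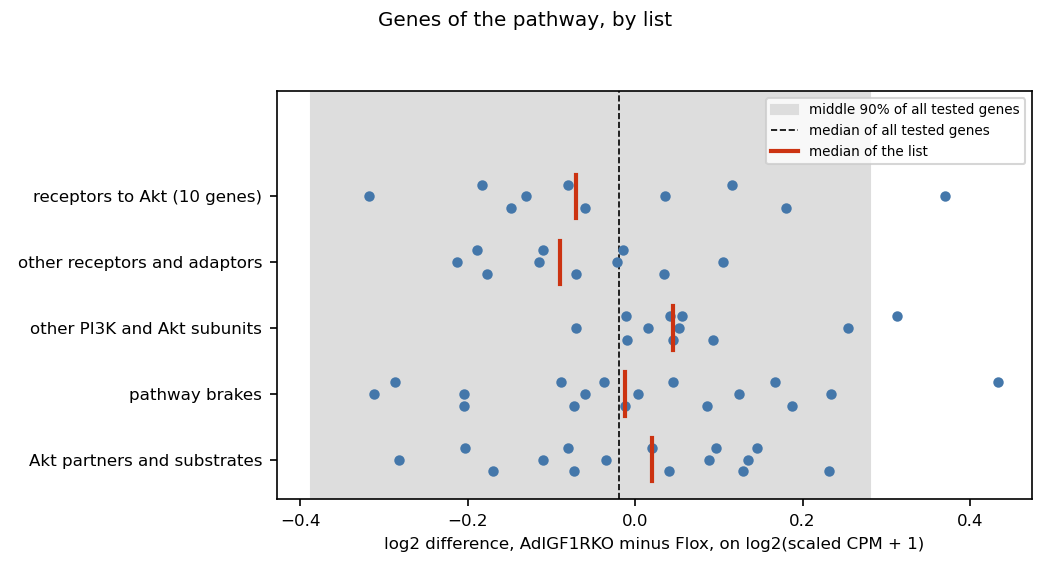
Log2 difference, AdIGF1RKO minus Flox (x axis, log2(scaled CPM + 1) scale), of each tested gene in the 10-gene route and the 4 further lists, with red bars for list medians and grey for the middle 90% of all tested genes. List medians lie between -0.09 and 0.05, beside -0.02 for all tested genes.

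Among the 62 other tested genes of the pathway, those whose profile over the 6 libraries was nearest to Igf1r were Shc1, Inpp5k and Inpp4a. Their mean absolute differences in log2 deviation were 0.0563, 0.0580 and 0.0612, where the median gene had 0.170. Nearest to Insr were Pdpk1, Inpp5k and Grb10, at 0.0743, 0.0767 and 0.0788, where the median gene had 0.139. Genes that vary little are near each other by this measure.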

How the data were processed

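The authors deposited 1 table of polyadenylated RNA from 6 libraries, called FPKM by its name. Per the submitters' processing notes the build was GRCm39 (aligner and counter not given in the sources used here). Each deposited signal was a whole number of reads times 1000000000 over 1 divisor per library (100% of values, within 0.5 of a deposited unit, where 1 read is worth 12.2 to 25.5 units), so no length had been divided out. Reads were recovered, rescaled by median ratio and tested with limma 3.58.1 (R 4.3.3) on log2(scaled CPM + 1), with an intensity trend, for genes with a mean of at least 1. The scale understates changes of low genes. edgeR 4.0.16 and DESeq2 1.42.0 were run on recovered reads as alternatives, with other scalings, filters, a pseudocount of 0.1, each library left out and a muscle covariate. The limma step was tested on simulated data with 200 changed genes. Simulated first with gene-wise dispersions, which carry the spread of outlier genes between the real libraries, its share of false calls was above the 0.05 threshold. Genes were drawn independently, so muscle RNA that moves many genes of a library together was not simulated. The simulation was then repeated with dispersions that follow the trend over expression. There the share lay near the threshold in a run with a single random seed, which does not settle the side it lies on. The fit itself was not altered, and the repeat does not clear it for data with such outlier genes or such muscle RNA.

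The members and lists were chosen with earlier results of these data known. All members are named, with the 4 genes of smallest p in each further list; some genes that this rule takes are not reported here. Irs3, Grb10 and Slc2a4 were added after their values were seen. Deviations from the group mean correlated between same-numbered libraries (0.347, 0.349 and 0.834), where 0.834 joins both muscle-rich libraries. Flox 2 correlated more with AdIGF1RKO 1 (0.700) than with AdIGF1RKO 2. The numbers are therefore not shown to mark pairs. The main fit had no replicate block, and the ratios of same-numbered libraries are a description only. The labels speak of mice but give no litters or batches, and p-values measure the spread between these libraries.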

Additional observations from a re-analysis of the deposited data

How the results depend on the processing

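Of 16 alternatives 3 (both filters and the replicate block) leave each difference as it is. Over the other 13, 119 of 130 values of the 10 genes kept their direction and 11 reversed, 4 of these under scalings that shift all genes and 7 with a replicate left out. With all 16, 0 passed the test (lowest limma adjusted p = 0.722). Igf1r, Pik3r1, Pik3ca and Pik3cb kept their direction throughout, although Pik3cb fell from 0.18 to 0.024 with the values as deposited. With libraries scaled to equal sums Insr had 0.040, Akt2 0.063 and Pik3r3 0.039. With the values as deposited Akt1 had -0.046, Pdpk1 -0.12, Grb2 -0.057, Bad -0.026 and Mapkap1 -0.014. Leaving out each replicate in turn gave -0.26 to -0.12 for Igf1r, -0.12 to -0.039 for Insr, -0.30 to 0.079 for Irs1, -0.28 to 0.13 for Irs2, 0.087 to 0.67 for Pik3r1, -0.44 to -0.16 for Pik3ca, 0.14 to 0.24 for Pik3cb, 0.074 to 0.15 for Akt1, -0.12 to 0.025 for Akt2 and -0.0053 to 0.065 for Pdpk1. The reversals came without Flox 3 (Irs1 0.050, Akt2 0.015), without Flox 2 (Irs2 0.13) and without AdIGF1RKO 2 (Irs1 0.079, Irs2 0.12, Akt2 0.025, Pdpk1 -0.0053).

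The Irs1-to-Irs2 log2 ratio differed by -0.02 between groups, by -0.36 to 0.33 with each replicate left out (reversed without Flox 3, 0.33, and without AdIGF1RKO 1, 0.067) and by 0.27 without both muscle-rich libraries. The other 4 ratios kept their direction, at -0.27 to -0.015 (Igf1r over Insr), -0.65 to -0.37 (Pik3ca over Pik3cb), 0.22 to 0.88 (Pik3r1 over Pik3ca plus Pik3cb) and 0.069 to 0.25 (Akt1 over Akt2) with each replicate left out. With the longest transcript as length Insr took place 4, Pik3ca 5, Irs2 6, Pdpk1 8 and Irs1 9. Over all genes limma called 0, with 385 at an unadjusted p under 0.05; edgeR called 0, DESeq2 23, and limma 1 without Flox replicate 1 and 0 without each other replicate. With the replicate block 582 genes had an unadjusted p under 0.05 and 0 were called; the block changed no call, and the unadjusted limma p of Pik3r1 went from 0.309 to 0.0103. The cause of these changes was not tested. With 3 libraries a group, the intervals of Irs1, Irs2 and Pik3r1 were the widest of the 10 genes, and Igf1r rests on the fewest reads.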
